A study of Homo sapiens with 18 samples.

Results

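The enzymes described here make, reactivate or inactivate androgens. They are UGT2B15, UGT2B17, UGT2B11, SRD5A1, SRD5A3, HSD17B4, HSD17B6, AKR1C3 and STS, 9 genes named by symbol and matched by Ensembl identifier among the 22034 genes of the count table. RNA-seq had been performed on 18 samples of VCaP, in 6 groups of 3. VCaP is a line of metastatic prostate cancer in which the TMPRSS2 promoter drives ERG through a gene fusion. One experiment used the VCaP-shERG line, whose cells carry a doxycycline-inducible short hairpin RNA against ERG and received DMSO (shERG.DMSO) or 1 µg/mL doxycycline (shERG.Dox); doxycycline-treated cells with a nontargeting hairpin were not analysed here. In the other experiment, parental VCaP cells received DMSO or 50 µM PBITE-1, a small molecule that binds the PNT domain of ERG, for 4, 8 or 12 h. The duration of doxycycline and the collection time of the DMSO samples were not given in the labels or the methods text, the 3 times of PBITE-1 share the same DMSO samples, and the methods call replicates biological without saying whether the samples of the hairpin line came from separate cultures, so p-values there measure the spread between these samples.

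Androgen levels in a prostate cell are set by enzymes that build or reactivate active steroids and by enzymes that remove them. Steroid sulfatase (STS) releases dehydroepiandrosterone from its sulfate, AKR1C3 reduces androstenedione to testosterone, the 5-alpha-reductase SRD5A1 converts testosterone to the more potent dihydrotestosterone and also reduces androstenedione, and HSD17B6 can oxidise androstanediol back to dihydrotestosterone. UGT2B15 and UGT2B17 act at the other end, attaching glucuronic acid to dihydrotestosterone and its metabolites so that they can leave the cell, and they are known as androgen-repressed genes in prostate cancer cells. HSD17B4 oxidises 17-beta-hydroxysteroids and also serves peroxisomal fatty acid oxidation, SRD5A3 is named for its likeness to the 5-alpha-reductases and makes dolichol for protein glycosylation, and UGT2B11 is a close relative of the androgen-conjugating UGT2B enzymes.

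The 3 UGT2B genes lie in a cluster on chromosome 4, all on the minus strand, at chr4:68646630-68670628 (UGT2B15, ENSG00000196620), chr4:68537184-68568527 (UGT2B17, ENSG00000197888) and chr4:69199951-69214731 (UGT2B11, ENSG00000213759) in GENCODE release 29 on GRCh38. Because their sequences are similar, the reads that they can share were examined before their values. The coding sequences of UGT2B15 and UGT2B17, 1593 bases each, were 96.5% identical, with 55 differing bases, and the proteins 94.2% identical. UGT2B15 and UGT2B11 were 84.5% identical in coding sequence and 76.8% in protein. The following 150 bases, the length of 1 read, hold the largest number of differences between UGT2B15 and UGT2B17 in any such window. Both are within exon 1 and within the coding sequence (coding bases 253 to 402), at chr4:68670217-68670366 and chr4:68568083-68568232, written 5′ to 3′ along the gene, with the 17 differing bases in capitals.

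UGT2B15: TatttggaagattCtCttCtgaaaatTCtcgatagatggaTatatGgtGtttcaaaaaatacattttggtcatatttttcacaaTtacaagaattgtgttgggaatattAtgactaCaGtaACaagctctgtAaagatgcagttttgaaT

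UGT2B17: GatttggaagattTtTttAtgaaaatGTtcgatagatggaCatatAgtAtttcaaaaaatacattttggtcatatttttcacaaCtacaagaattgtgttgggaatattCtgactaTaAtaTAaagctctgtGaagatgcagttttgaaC

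At the other extreme, 199 consecutive coding bases (866 to 1064, spliced from exons 2, 3 and 4) are the same in both genes, so a 150-base read that falls inside this run cannot be assigned to either gene by its sequence alone. It is shown because it is the longest stretch of coding sequence in which the reads of the 2 genes cannot be told apart.

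UGT2B15 and UGT2B17: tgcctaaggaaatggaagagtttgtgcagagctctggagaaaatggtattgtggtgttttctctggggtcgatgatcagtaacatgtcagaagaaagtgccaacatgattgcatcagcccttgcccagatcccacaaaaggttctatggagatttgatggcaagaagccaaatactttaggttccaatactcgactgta

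Of the 1928 windows of 150 bases in the UGT2B15 transcript, 94 (4.88%) occurred without a mismatch in the UGT2B17 transcript, and of its windows of 50 bases 27.5% did. None of the 150-base windows of UGT2B15 occurred in the UGT2B11, UGT2B4 or UGT2B10 transcripts. UGT2B11 shares sequence with other members of the family, and its coding sequence was 94.8% identical to that of UGT2B10. Of the 1939 windows of 150 bases in the UGT2B11 transcript, 27 (1.39%) occurred in another UGT2B gene or pseudogene, and of its windows of 50 bases 40.9% did. The counts of UGT2B11 are therefore also uncertain to that extent. In the plot of differences along the coding sequence, UGT2B17 had a median of 4 differing bases per window and UGT2B11 a median of 21. How the authors' counting treated reads that fit both genes is not given in the sources used here, so the split of counts between UGT2B15 and UGT2B17 is uncertain to that extent, and the sum of both genes, tested as 1 feature, is given beside the separate values.

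**Figure D1:**
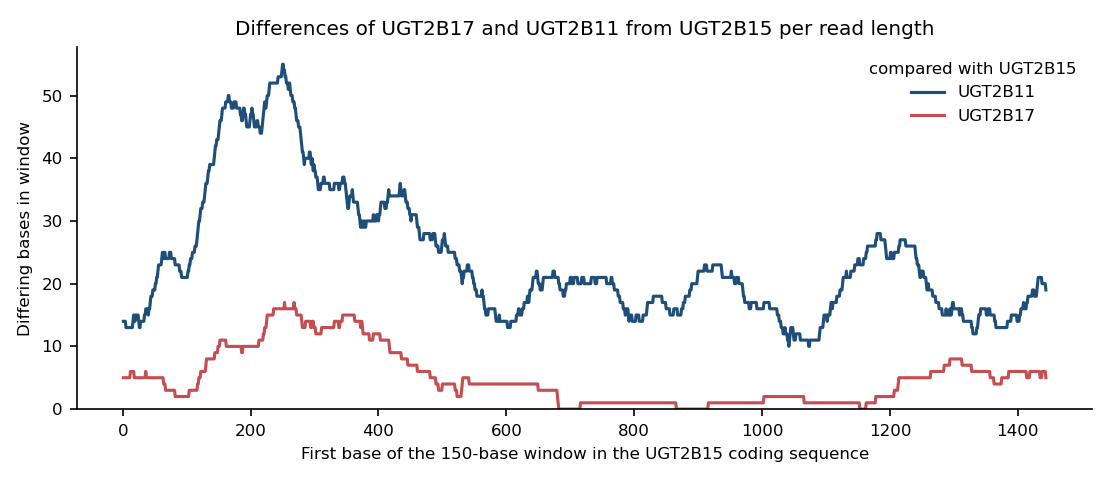
Bases that differ from UGT2B15 in each 150-base window of its coding sequence (x-axis, first base of the window; y-axis, number of differing bases) for UGT2B17 (red) and UGT2B11 (blue). UGT2B17 ranges from 0 to 17 differences per window and UGT2B11 from 10 to 55.

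The samples held 11308600 to 17483423 counts each. Values are given as CPM, counts scaled to library size with TMM factors over the 18 samples, and tests are limma-voom on the 14164 genes that passed a filter on low counts, with Benjamini-Hochberg adjusted p-values over all of them. A gene is called lower or higher at an adjusted p under 0.05. ERG, the target of the hairpin, was between 407 and 431 CPM in shERG.DMSO and between 149 and 157 CPM in shERG.Dox (log2 fold change -1.44, SE 0.04, limma adjusted p = 3.3e-22), and in parental cells it fell by 0.68, 1.62 and 1.58 on the log2 scale at 4, 8 and 12 h of PBITE-1. All 6 luminal prostate markers reported here (KRT8, KRT18, EPCAM, KLK3, HOXB13 and FOXA1) were detected in every group, with a summed level of 1295 to 1659 CPM. Single markers moved in both directions within this sum. HOXB13 was at 259 to 272 CPM in shERG.DMSO, 445 to 454 in shERG.Dox, 237 to 256 in DMSO and 82.2 to 111 at 12 h. From DMSO to 12 h, KLK3 went from 83.2 to 91.7 CPM down to 7.62 to 8.84. EPCAM fell from 329 to 346 CPM to 207 to 219, and FOXA1 rose from 524 to 529 CPM to 601 to 704. The part of these moves in the results was not tested. Of the fibroblast, endothelial and leukocyte markers, COL1A2, COL3A1, CDH5, PTPRC and CD3E were at 0 or at no more than 4 counts in any sample, and the 3 lists summed to at most 7.35, 2.11 and 1.41 CPM. The other markers of these lists were detected, and some changed. COL1A1 had 13 to 24 counts in shERG.DMSO, 67 to 78 in shERG.Dox, 16 to 24 in DMSO and 62 to 110 at 12 h. PECAM1 had 1 count per sample in DMSO and 19 to 26 at 12 h, while VWF had 11 to 25 and 0 to 3. CD68 had 7 to 20 counts throughout and PDGFRB at most 9. The part of these markers in the results was not tested. The 2 basal markers in the table, KRT14 and TP63, summed to 0.801 to 6.15 CPM and moved in opposite directions in parental cells. KRT14 had 66 to 96 counts in DMSO and 10 to 17 at 12 h, while TP63 had 0 and 7 to 13. In the hairpin line KRT14 had 10 to 23 counts and TP63 0 to 2. Liver is another tissue rich in these enzymes, and of 3 hepatocyte markers ALB and TTR were detected while APOA1 had at most 4 counts. That list summed to 35.9 to 38.8 CPM in shERG.DMSO, 69.4 to 71.0 in shERG.Dox, 49.5 to 53.5 in DMSO, and 50.4 to 57.2, 44.5 to 49.6 and 22.9 to 25.0 CPM at 4, 8 and 12 h, and its part in the results was not tested. In bulk RNA, fewer cells of a kind and less RNA per cell cannot be told apart.

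All 9 enzymes were detected. Compared per kilobase of exon, HSD17B4 was the most abundant of the 9 in every group, at 45.1 CPM per kilobase in parental DMSO, followed there by AKR1C3 (13.1), HSD17B6 (13.0), STS (8.90), SRD5A1 (3.88), UGT2B15 (3.68), SRD5A3 (2.15), UGT2B17 (0.912) and UGT2B11 (0.0852). UGT2B15 was 4th of the 9 in shERG.DMSO, at 7.80 CPM per kilobase, and 7th at 12 h of PBITE-1, at 0.503. UGT2B17 stood above UGT2B11 in every group except PBITE-1 at 12 h, where both were below 0.1 CPM per kilobase.

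**Figure D2:**
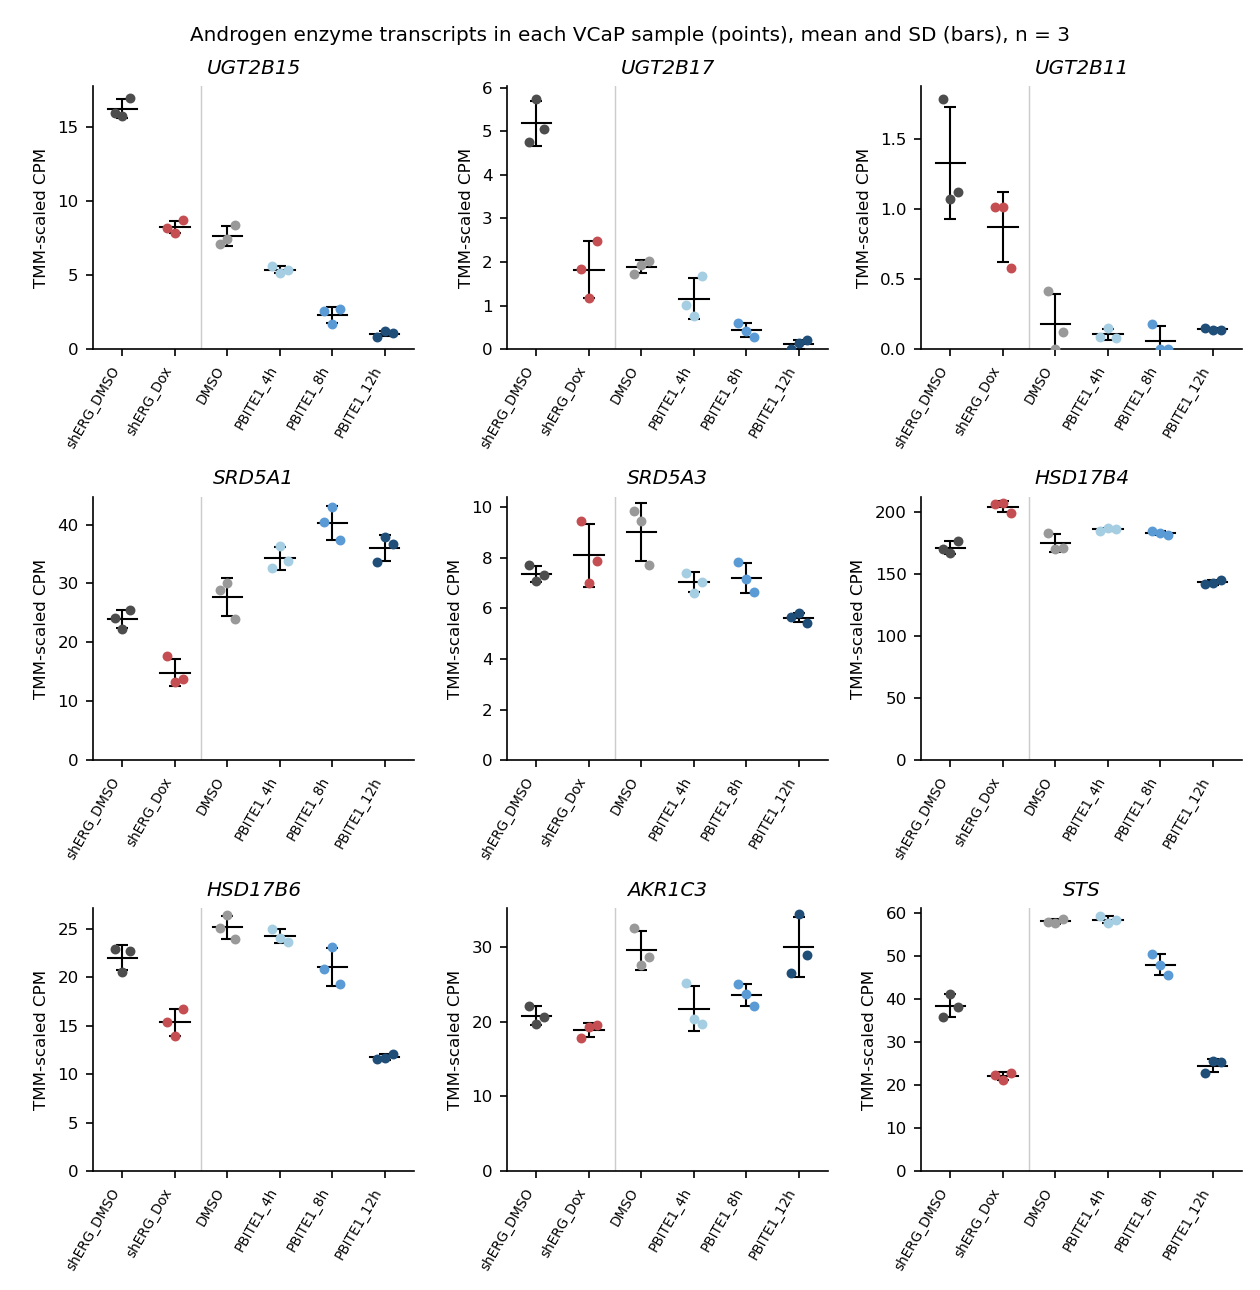
TMM-scaled CPM of each enzyme (one panel per gene, linear y-axis from 0) in the 6 groups, with 1 point per sample, the group mean as a line and the SD as a bar (n = 3). UGT2B15 runs from 16.2 CPM in shERG.DMSO to 1.05 CPM at 12 h of PBITE-1, while the highest mean of SRD5A1 is at 8 h.

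The comparison of shERG.Dox with shERG.DMSO asks how the enzymes respond when the ERG hairpin is induced. UGT2B15, UGT2B17, SRD5A1, HSD17B6 and STS were lower (5 of 9 genes) and HSD17B4 was higher (1 of 9), while AKR1C3, SRD5A3 and UGT2B11 did not pass the test. Of all genes tested, 35.3% were lower and 35.1% higher in the same comparison. UGT2B17 was the 1 enzyme lower by more than 1 on the log2 scale, a size that 7.19% of all genes tested reached in that direction. The median log2 fold change was -0.56 over the 9 enzymes and 0.02 over all genes.

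UGT2B15, which conjugates dihydrotestosterone, was at 15.9, 15.7 and 16.9 CPM in the 3 shERG.DMSO samples and at 8.15, 7.86 and 8.68 CPM in shERG.Dox. Every Dox sample was below every DMSO sample of the line, and the log2 fold change was -0.98 (SE 0.11, limma adjusted p = 2.7e-08). UGT2B17, which acts on the same steroids, went from 4.74, 5.75 and 5.06 CPM to 1.83, 1.16 and 2.48 CPM. Its groups did not overlap either (log2 fold change -1.56, SE 0.26, limma adjusted p = 6.0e-06). UGT2B11 had 16 to 23 counts per sample in shERG.DMSO and 8 to 15 in shERG.Dox, and its log2 fold change was -0.56 with a 95% confidence interval of -1.35 to 0.22 (limma adjusted p = 0.19). UGT2B15 and UGT2B17 together held 266, 340 and 313 counts in shERG.DMSO and 147, 124 and 153 in shERG.Dox, and their sum changed with Dox by -1.09 on the log2 scale (SE 0.11, limma adjusted p = 7.3e-10). With all 11 UGT2B genes and pseudogenes of the table summed, which include UGT2B4, a gene that rose with Dox, the log2 fold change was -0.54 (SE 0.09, limma adjusted p = 3.7e-06).

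STS, which reactivates sulfated adrenal steroids, was at 35.9, 41.2 and 38.2 CPM without Dox and at 22.4, 21.1 and 22.7 CPM with it. The groups were apart by more than their spread (log2 fold change -0.80, SE 0.08, limma adjusted p = 6.9e-10). SRD5A1 was at 24.2, 22.3 and 25.4 CPM in shERG.DMSO and at 17.6, 13.2 and 13.8 CPM in shERG.Dox. All 3 Dox samples were lower (log2 fold change -0.69, SE 0.10, limma adjusted p = 1.3e-06), with the first of them closest to the controls. HSD17B6, the oxidative enzyme that can regenerate dihydrotestosterone, went from 22.9, 20.5 and 22.7 CPM to 15.4, 13.9 and 16.7 CPM (log2 fold change -0.52, SE 0.09, limma adjusted p = 2.6e-05).

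HSD17B4 was the enzyme that rose with Dox. It was at 170, 166 and 177 CPM in shERG.DMSO and at 206, 207 and 199 CPM in shERG.Dox, a small change that was still larger than the spread between samples (log2 fold change 0.25, SE 0.04, limma adjusted p = 8.6e-07). AKR1C3 was 20.8 ± 1.23 and 18.9 ± 0.942 CPM (SD, n = 3 each) without and with Dox, and the 95% confidence interval of its log2 difference was -0.32 to 0.05. SRD5A3 was 7.36 ± 0.313 and 8.10 ± 1.24 CPM (SD, n = 3 each), with an interval of -0.16 to 0.43. Changes within these intervals were not resolved at this depth.

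In parental cells the question was how the enzymes respond to the ERG-binding compound over time. At 4 h, UGT2B15 and AKR1C3 were lower and SRD5A1 and HSD17B4 higher, 2 of 9 genes in each direction, against 24.7% of all genes lower and 26.4% higher. At 8 h, UGT2B15, UGT2B17, HSD17B6, AKR1C3 and STS were lower (5 of 9, with 37.0% of all genes lower) and SRD5A1 and HSD17B4 higher (2 of 9, with 35.9% of all genes higher). At 12 h, 6 of the 9 were lower, namely UGT2B15, UGT2B17, SRD5A3, HSD17B4, HSD17B6 and STS, and SRD5A1 alone was higher, while 39.4% of all genes were lower and 39.4% higher. Past a log2 fold change of -1, UGT2B15 and UGT2B17 were called at 8 h (8.86% of all genes) and UGT2B15, UGT2B17, HSD17B6 and STS at 12 h (15.4% of all genes). The median log2 fold change of the 9 was -0.03, -0.27 and -0.62 at the 3 times, and that of all genes -0.01, -0.02 and -0.01. UGT2B11 is among the 9 in these counts and medians, although it had 0 to 6 counts per parental sample and could not show a change there. Its 4 h value ran from -0.82 to 1.03 as single samples were left out, so the medians depend partly on noise. The later counts of 9 between times and between the 2 responses include it too.

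**Figure D3:**
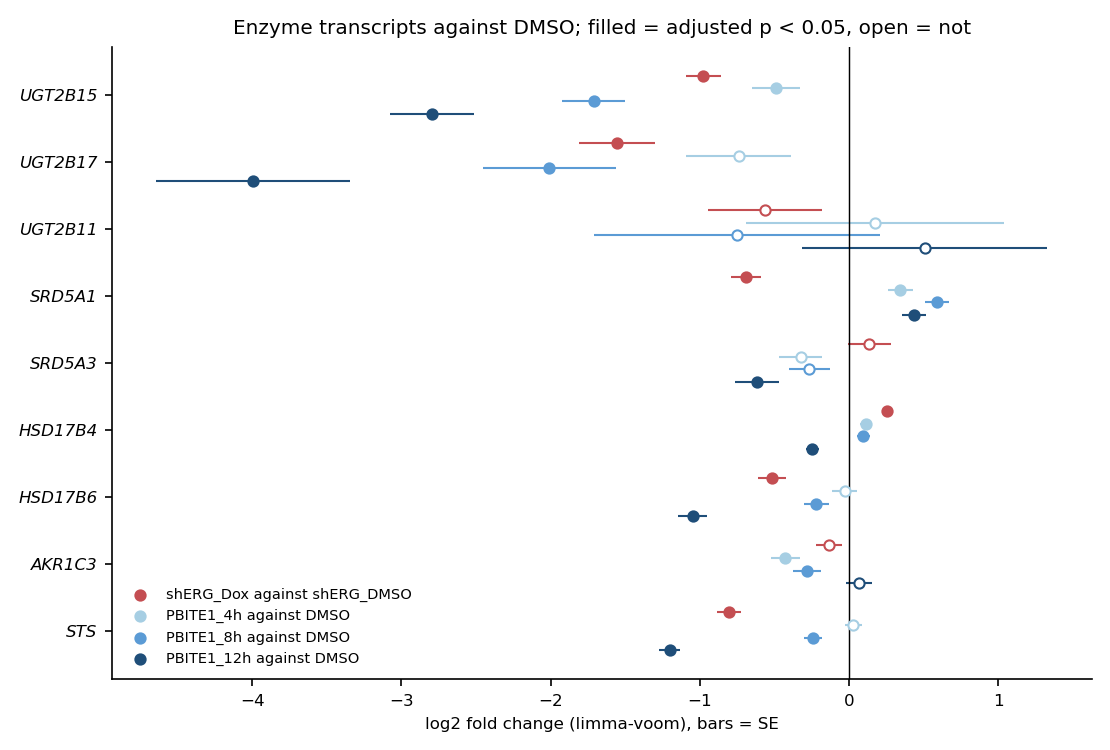
log2 fold change of each enzyme (x-axis, limma-voom, bars are SE) in shERG.Dox against shERG.DMSO (red) and in PBITE-1 at 4, 8 and 12 h against DMSO (light to dark blue), with filled points at an adjusted p under 0.05. UGT2B15 and UGT2B17 reach -2.80 and -3.99 at 12 h, and SRD5A1 lies to the left of 0 in shERG.Dox and to the right of 0 at each time of PBITE-1.

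UGT2B15 was at 7.11, 7.43 and 8.37 CPM in DMSO and at 5.63, 5.10 and 5.36 CPM at 4 h. It was at 2.59, 1.70 and 2.67 CPM at 8 h and at 0.831, 1.20 and 1.10 CPM at 12 h. The 4 groups did not overlap, and the level was lower at each later time. The log2 fold change against DMSO was -0.49 (SE 0.16, limma adjusted p = 0.011), -1.71 (SE 0.21, limma adjusted p = 3.5e-09) and -2.80 (SE 0.28, limma adjusted p = 1.9e-11) at 4, 8 and 12 h. Without the third DMSO sample the 4 h value was -0.42 with an adjusted p of 0.0504, so the call at 4 h was lost without that sample.

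UGT2B17 had few counts in parental cells, 25, 30 and 34 in DMSO, 12, 10 and 22 at 4 h, 10, 6 and 3 at 8 h, and 0, 2 and 3 at 12 h. Its highest sample at 8 h was below its lowest sample at 4 h, and its highest at 12 h below its lowest at 8 h, in CPM. The log2 fold change was -0.74 at 4 h (SE 0.35, limma adjusted p = 0.077), -2.01 at 8 h (SE 0.45, limma adjusted p = 1.2e-04) and -3.99 at 12 h (SE 0.65, limma adjusted p = 7.7e-07). Without the third 4 h sample the 4 h value was -1.05 (adjusted p = 0.043). At 12 h the fitted value depends on how the few counts are modelled. From the summed counts, 5 at 12 h against 89 in DMSO, UGT2B17 was 16.2-fold lower after scaling, with an exact 95% interval of 6.70 to 51.2 for counting error only. The same ratio for UGT2B15, from 45 and 359 counts, was 7.28-fold with an interval of 5.33 to 10.2. The 2 intervals overlap, and the 2 falls were not tested against each other, so no order of the 2 genes by size of fall is given.

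The share of UGT2B17 in the counts of UGT2B15 and UGT2B17 together was 24.4% in shERG.DMSO (Wilson 95% interval 21.7% to 27.3%) and 18.2% in shERG.Dox (14.8% to 22.1%). It was 19.9% in DMSO (interval 16.4% to 23.8%). After PBITE-1 it was 17.8% at 4 h (interval 13.5% to 23.1%), 16.5% at 8 h (interval 10.8% to 24.4%) and 10.0% at 12 h (interval 4.35% to 21.4%). The intervals of the parental groups overlap one another, and so do those of the 2 hairpin groups. No difference in share was tested. UGT2B11 had 0 to 6 counts in each of the 12 parental samples and passed the filter through the hairpin line, so no change was detectable for it in parental cells. UGT2B15 and UGT2B17 together held 128, 146 and 174 counts in DMSO, 78, 77 and 92 at 4 h, 53, 30 and 32 at 8 h, and 11, 20 and 19 at 12 h. Tested as 1 feature they had log2 fold changes of -0.53, -1.77 and -2.98 (SE 0.15, 0.20 and 0.28, limma adjusted p = 0.0029, 2.9e-10 and 1.5e-12). All 11 UGT2B genes summed gave log2 fold changes of -0.52, -1.81 and -2.78 at 4, 8 and 12 h (SE 0.14, 0.18 and 0.24, limma adjusted p = 0.0016, 2.9e-11 and 2.8e-13).

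STS stayed at its DMSO level at first. It was at 57.9, 57.5 and 58.7 CPM in DMSO and at 59.2, 57.7 and 58.2 CPM at 4 h, with a 95% confidence interval of -0.09 to 0.15 for the log2 difference. At 8 h it was at 50.4, 47.8 and 45.6 CPM, below all DMSO samples (log2 fold change -0.24, SE 0.06, limma adjusted p = 4.3e-04). At 12 h it was at 22.7, 25.5 and 25.3 CPM, less than any earlier sample (log2 fold change -1.20, SE 0.07, limma adjusted p = 1.6e-18). HSD17B6 had a like course, with 25.1, 26.4 and 23.9 CPM in DMSO, 25.0, 24.1 and 23.7 CPM at 4 h, 20.8, 23.1 and 19.2 CPM at 8 h and 11.6, 11.6 and 12.1 CPM at 12 h. Its log2 fold change was -0.03 at 4 h (SE 0.08, limma adjusted p = 0.80), -0.22 at 8 h (SE 0.08, limma adjusted p = 0.019) and -1.05 at 12 h (SE 0.10, limma adjusted p = 2.8e-12). The 8 h call of HSD17B6 was lost without the first or the third 8 h sample or the second DMSO sample, with adjusted p-values of 0.069, 0.091 and 0.081.

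SRD5A1 went the other way. It was at 28.9, 30.1 and 23.98 CPM in DMSO, 32.6, 36.3 and 33.8 CPM at 4 h, 40.5, 43.0 and 37.3 CPM at 8 h and 33.6, 37.9 and 36.7 CPM at 12 h. Every treated sample was above every DMSO sample, and the log2 fold change was 0.34, 0.59 and 0.44 at 4, 8 and 12 h (SE 0.08 each, limma adjusted p = 7.5e-04, 2.9e-08 and 7.9e-06). SRD5A3 was 9.02 ± 1.15 CPM in DMSO and 7.03 ± 0.397, 7.20 ± 0.597 and 5.64 ± 0.190 CPM at 4, 8 and 12 h (SD, n = 3 each), and was called at 12 h (log2 fold change -0.62, SE 0.15, limma adjusted p = 2.9e-04). Its DMSO samples ranged from 7.71 to 9.87 CPM, and without the lowest of them, the third, it was also lower at 4 and 8 h (log2 fold change -0.44 and -0.38, adjusted p = 0.015 and 0.020). The 4 h call was also gained under upper-quartile scaling (adjusted p = 0.041) and by library size only (adjusted p = 0.029). So it was with edgeR's quasi-likelihood test (adjusted p = 0.049) and in the fit of 18 samples (adjusted p = 0.041). At 8 h library size only gave a call (-0.33, adjusted p = 0.032).

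HSD17B4, the most abundant of the enzymes, moved little. It was 175 ± 7.13 CPM in DMSO, 186 ± 1.12 and 183 ± 1.82 CPM at 4 and 8 h, and 143 ± 1.69 CPM at 12 h (SD, n = 3 each). The values at 4 and 8 h were higher by 0.11 and 0.10 on the log2 scale (SE 0.04 each, limma adjusted p = 0.020 and 0.034), and the 12 h value was lower (log2 fold change -0.25, SE 0.04, limma adjusted p = 1.9e-06). The 2 early calls were lost when the counts were scaled by library size only (0.07 and 0.03, adjusted p = 0.18 and 0.50) or by the upper quartile (0.09 and 0.07, adjusted p = 0.069 and 0.13). The 4 h call was also lost without the second 4 h sample or the second or the third DMSO sample (adjusted p = 0.064, 0.086 and 0.066), and the 8 h call without any 1 of the 8 h samples (adjusted p = 0.099, 0.066 and 0.054) or without the second or the third DMSO sample (adjusted p = 0.12 and 0.098).

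AKR1C3, which makes testosterone from androstenedione, was at 32.5, 27.6 and 28.6 CPM in DMSO and at 25.2, 20.3 and 19.8 CPM at 4 h. It was at 25.0, 23.7 and 22.1 CPM at 8 h and at 26.6, 34.4 and 28.99 CPM at 12 h. All samples at 4 and 8 h were below all DMSO samples, whereas the 12 h samples spanned the DMSO range. The log2 fold change was -0.43 at 4 h (SE 0.10, limma adjusted p = 3.35e-04), -0.28 at 8 h (SE 0.09, limma adjusted p = 0.0075) and 0.07 at 12 h (SE 0.09, limma adjusted p = 0.50). Without the first DMSO sample the 8 h value was -0.22 (adjusted p = 0.055). AKR1C3 belongs to a family of similar genes on chromosome 10, and reads may be shared with them. AKR1C1 rose from 12 to 23 counts in DMSO to 71 to 157 counts at 12 h (log2 fold change 2.89, SE 0.34, limma adjusted p = 1.1e-09), AKR1C2 had 8 to 22 counts at 12 h, and AKR1C4 had 0 counts throughout. With AKR1C1 to AKR1C4 summed, the 12 h log2 fold change became 0.32 (SE 0.09, limma adjusted p = 0.0017) and that at 8 h -0.17 (limma adjusted p = 0.13). AKR1C1, AKR1C2 and AKR1C4 are given for this reason and were chosen after their values were seen.

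Neighbouring times were also compared directly. From 4 to 8 h, UGT2B15, UGT2B17 and STS fell (3 of 9, with 26.3% of all genes lower) and SRD5A1 rose (1 of 9, with 26.7% of all genes higher). UGT2B15 fell by 1.22 on the log2 scale (SE 0.23, limma adjusted p = 2.1e-05) and STS by 0.27 (SE 0.06, limma adjusted p = 3.0e-04). From 8 to 12 h, UGT2B15, UGT2B17, HSD17B4, HSD17B6 and STS fell (5 of 9, with 32.5% of all genes lower) and AKR1C3 rose (1 of 9, with 27.8% of all genes higher). STS fell by 0.96 (SE 0.07, limma adjusted p = 2.4e-14), HSD17B6 by 0.83 (SE 0.10, limma adjusted p = 8.8e-09) and HSD17B4 by 0.34 (SE 0.04, limma adjusted p = 7.0e-09). UGT2B15 fell again by 1.08 (SE 0.33, limma adjusted p = 0.0045), and AKR1C3 rose by 0.35 (SE 0.09, limma adjusted p = 0.0019). The UGT2B17 steps of -1.27 (SE 0.49, limma adjusted p = 0.027) and -1.98 (SE 0.73, limma adjusted p = 0.019) rest on few counts. Leaving out the first 12 h sample gave -1.22 for the later step (adjusted p = 0.14), and leaving out the first 8 h sample -1.72 (adjusted p = 0.074). For the earlier step it gave -0.96 without the third 4 h sample (adjusted p = 0.14), -1.25 without the second 8 h sample (adjusted p = 0.072) and -1.06 without the third (adjusted p = 0.094). With no filter on low counts the earlier UGT2B17 step was -1.31 (limma adjusted p = 0.065), so its call was lost there too. SRD5A1 also lost its rise from 4 to 8 h without the second 8 h sample (0.20, adjusted p = 0.067), where HSD17B6 gained a fall (-0.26, adjusted p = 0.032). Scaling by library size only also gave HSD17B6 that fall (-0.21, limma adjusted p = 0.045). From 8 to 12 h, SRD5A1 and SRD5A3 fell without the third 8 h sample (-0.19 and -0.40, adjusted p = 0.048 and 0.047). SRD5A3 was also called lower over that step by edgeR's quasi-likelihood test (-0.35, adjusted p = 0.046). So it was with at least 10 counts in every sample (-0.36, limma adjusted p = 0.042) and in the fit of 18 samples (-0.37, limma adjusted p = 0.044).

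The starting levels of the enzymes differed between the lines. UGT2B15 and UGT2B17 were higher in shERG.DMSO than in parental DMSO, by log2 differences of 1.08 (SE 0.12, limma adjusted p = 1.2e-10) and 1.44 (SE 0.24, limma adjusted p = 3.6e-06), and AKR1C3, STS and HSD17B6 were lower by log2 differences of -0.50 (SE 0.09, limma adjusted p = 1.3e-05), -0.59 (SE 0.06, limma adjusted p = 4.5e-11) and -0.19 (SE 0.08, limma adjusted p = 0.047). These are 2 and 3 of the 8 enzymes counted, against 23.3% of all genes in either direction. UGT2B11, which passed the filter only because of the hairpin line, was left out of this count and had 16 to 23 counts in shERG.DMSO and 0 to 6 in parental DMSO. The HSD17B6 call was lost without the second or the third shERG.DMSO sample or the first or second DMSO sample (adjusted p between 0.056 and 0.23). Line and experiment cannot be told apart in this comparison. The level of UGT2B15 in shERG.Dox, 8.23 ± 0.413 CPM (SD, n = 3), was next to its level in parental DMSO, 7.64 ± 0.655 CPM (SD, n = 3), and the 2 groups did not differ beyond their spread (limma adjusted p = 0.49). ERG was also higher in shERG.DMSO than in parental DMSO, by a log2 difference of 0.46, and its part in the difference of the enzymes was not tested.

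Ordered by level, UGT2B15 ran from shERG.DMSO through shERG.Dox and DMSO to 4, 8 and 12 h of PBITE-1, and of these neighbours shERG.Dox and DMSO were the pair whose difference did not pass the test. For UGT2B17, the order was shERG.DMSO, DMSO, shERG.Dox, 4 h, 8 h and 12 h, and neither DMSO and shERG.Dox (limma adjusted p = 0.75) nor shERG.Dox and 4 h (0.11) could be separated. STS was at 58.4 ± 0.775 CPM at 4 h and 58.0 ± 0.587 CPM in DMSO (SD, n = 3 each), which did not differ beyond their spread, and then fell stepwise through 8 h, shERG.DMSO and 12 h to shERG.Dox, with 12 h and shERG.Dox not separated (limma adjusted p = 0.094). SRD5A1 was highest at 8 h, followed by 12 h, 4 h, DMSO, shERG.DMSO and shERG.Dox, and the steps from 4 h to DMSO and from shERG.DMSO to shERG.Dox passed the test. SRD5A3 had no pair of neighbours that did. For HSD17B4, shERG.Dox stood above 4 h and shERG.DMSO above 12 h, and the neighbours between did not separate. HSD17B6 separated between 8 h and shERG.Dox and between shERG.Dox and 12 h, and AKR1C3 between DMSO and 8 h.

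The 2 responses were compared directly as the 12 h PBITE-1 response minus the Dox response, in which compound and hairpin line cannot be told apart. It was below 0 for 6 of the 9 enzymes (35.1% of all genes) and above 0 for SRD5A1 (1 of 9, with 33.3% of all genes). UGT2B15 and UGT2B17 fell more at 12 h of PBITE-1 than with Dox, by log2 differences of -1.86 (SE 0.30, limma adjusted p = 5.5e-07) and -2.48 (SE 0.71, limma adjusted p = 0.0020). STS and HSD17B6, lower in both, differed by -0.44 (SE 0.10, limma adjusted p = 2.4e-04) and -0.57 (SE 0.14, limma adjusted p = 2.9e-04). SRD5A1 and HSD17B4 went in opposite directions in the 2 experiments, with differences of 1.09 (SE 0.14, limma adjusted p = 1.9e-09) and -0.54 (SE 0.06, limma adjusted p = 1.1e-11). SRD5A3 differed by -0.79 (SE 0.21, limma adjusted p = 7.6e-04), and for AKR1C3 the difference of 0.16 had a 95% confidence interval of -0.11 to 0.43. With AKR1C1 to AKR1C4 summed, that difference was 0.34 and passed the test (SE 0.14, limma adjusted p = 0.032). UGT2B15 and UGT2B17 as 1 feature differed by -1.93 (SE 0.29, limma adjusted p = 1.7e-07).

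Androgen-regulated genes that stand beside these enzymes moved in their own ways. KLK3, which encodes prostate-specific antigen, had a log2 fold change of -0.24 (SE 0.05) with Dox, which turned to 0.018 with an adjusted p of 0.77 when scaled by library size only and was -0.08 with an adjusted p of 0.16 under upper-quartile scaling. With PBITE-1 its log2 fold change was -0.19 at 4 h (SE 0.05), -0.71 at 8 h (SE 0.06) and -3.42 at 12 h (SE 0.11). KLK2 fell by 0.59 on the log2 scale with Dox, by 0.38 at 8 h and by 2.13 at 12 h, and at 4 h its value of 0.06 did not pass the test. FKBP5, another androgen-induced gene, fell by 1.504 with Dox and by 0.62 at 12 h, and its values of -0.04 and -0.08 at 4 and 8 h did not pass the test. FKBP5 was called lower at 8 h under upper-quartile scaling (-0.11, adjusted p = 0.023), by library size only (-0.15, adjusted p = 0.0023), in the fit of 18 samples (-0.11, adjusted p = 0.015) and without the first DMSO sample (-0.11, adjusted p = 0.034). TMPRSS2, whose promoter drives the fusion, fell by 1.02 with Dox and by 1.39, 1.95 and 1.95 at the 3 times. The limma adjusted p-values of the falls named here were at most 8.4e-13, apart from KLK3 with Dox (1.7e-04) and at 4 h (0.0033) and FKBP5 under the other settings. The part of these changes in those of the enzymes was not tested.

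Other genes of androgen and steroid metabolism were read as a list of 55, of which 51 were in the table and 26 passed the filter. With Dox 9 of the 26 were lower and 10 higher, against 35.3% and 35.1% of all genes tested. At 4 h 2 were lower and 8 higher (24.7% and 26.4% of all genes), at 8 h 7 and 12 (37.0% and 35.9%), and at 12 h 11 and 8 (39.4% and 39.4%). These counts and the medians rest partly on genes near 0 that passed the filter through a group where they are high. SRD5A2, counted as higher in all 4, had 0 counts in both control groups and 13 to 19 at 8 h. It had 1 to 3 counts with Dox, 3 per sample at 4 h and 1 to 3 at 12 h. The median log2 fold change of the 26 was -0.03 with Dox and 0.15, 0.24 and -0.14 at the 3 times, and that of all genes 0.02, -0.01, -0.02 and -0.01. The 3-beta-hydroxysteroid dehydrogenases HSD3B1 and HSD3B2, the 5-beta-reductase and the steroid uptake carriers had no gene that passed the filter. CYP17A1, the enzyme that opens the pathway from progestogens to androgens, had 7 counts in all 18 samples together and did not pass it.

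Among the partners of conjugation, UGDH makes the UDP-glucuronic acid that the UGT2B enzymes consume. It fell by 0.91 on the log2 scale with Dox (SE 0.04, limma adjusted p = 6.6e-17) and rose by 0.30 at 4 h (SE 0.06, limma adjusted p = 4.1e-05), 0.26 at 8 h (SE 0.06, limma adjusted p = 1.1e-04) and 1.24 at 12 h (SE 0.05, limma adjusted p = 1.4e-22), in the opposite direction to UGT2B15 at all 3 times. SULT1A1, a phenol sulfotransferase with close paralogs that can share its reads, was lower by -0.85 on the log2 scale at 4 h of PBITE-1 (SE 0.16), by -1.40 at 8 h (SE 0.18) and by -1.89 at 12 h (SE 0.21). PAPSS2, which supplies activated sulfate for steroid sulfation, was lower with Dox (log2 fold change -1.78, SE 0.16) and at 12 h (-0.60, SE 0.09). The limma adjusted p-values of these SULT1A1 and PAPSS2 changes were at most 3.8e-05. At 4 h PAPSS2 was higher (log2 fold change 0.25, SE 0.08, limma adjusted p = 0.00997), a call lost without the third 4 h sample (adjusted p = 0.084) or the third DMSO sample (adjusted p = 0.052). UGT2B4, another UGT2B gene, is added because of its sequence likeness and was chosen after its values were seen. It rose from 28 to 57 counts in shERG.DMSO to 79 to 125 counts in shERG.Dox (log2 fold change 1.24, SE 0.23, limma adjusted p = 2.9e-05), whereas UGT2B15 and UGT2B17 fell. In parental cells it had 17 to 22 counts in DMSO and 1 to 4 at 12 h, and was 7.56-fold lower there from the summed counts (exact 95% interval 3.44 to 19.6, counting error only).

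On the synthetic side, HSD17B7, which reduces estrone and also takes part in cholesterol synthesis, rose at every time of PBITE-1. Its log2 fold change was 1.37 at 4 h (SE 0.11), 2.31 at 8 h (SE 0.10) and 1.51 at 12 h (SE 0.11), and it fell by 0.56 with Dox (SE 0.13). POR, the electron donor of microsomal cytochrome P450 enzymes, was higher by 0.53 (SE 0.07) at 4 h, 1.12 (SE 0.07) at 8 h and 1.47 (SE 0.06) at 12 h, and by 0.26 (SE 0.06) with Dox. CYB5A, which aids the lyase reaction of CYP17A1, and TSPO, an outer mitochondrial membrane protein linked to cholesterol import, were lower at 12 h by log2 fold changes of -1.18 (SE 0.10) and -1.22 (SE 0.12), and both were also lower with Dox (-0.88, SE 0.06, and -1.08, SE 0.12) and at 8 h (-0.37, SE 0.08, and -0.28, SE 0.10). With Dox, CYP7B1, an oxysterol and steroid hydroxylase, and FDXR, which feeds electrons to mitochondrial P450 enzymes, were higher by 1.23 (SE 0.24) and 1.05 (SE 0.21). With PBITE-1, FDXR was higher by 0.58 at 4 h (SE 0.24), 0.87 at 8 h (SE 0.22) and 0.82 at 12 h (SE 0.22), and CYP7B1 by 0.30 at 8 h (SE 0.11). The limma adjusted p-values of these calls were at most 0.0011, apart from TSPO at 8 h (0.013), CYP7B1 at 8 h (0.013) and FDXR at 4 h (0.039). The TSPO call at 8 h was lost without the second 8 h sample or the first DMSO sample (adjusted p = 0.17 and 0.098), and that of CYP7B1 without the first 8 h sample (adjusted p = 0.095). The FDXR call at 4 h was lost without any 1 of the 4 h samples or the first or the third DMSO sample (adjusted p between 0.0502 and 0.14), by library size only (adjusted p = 0.057) and in the fit of 18 samples (adjusted p = 0.052).

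**Figure D4:**
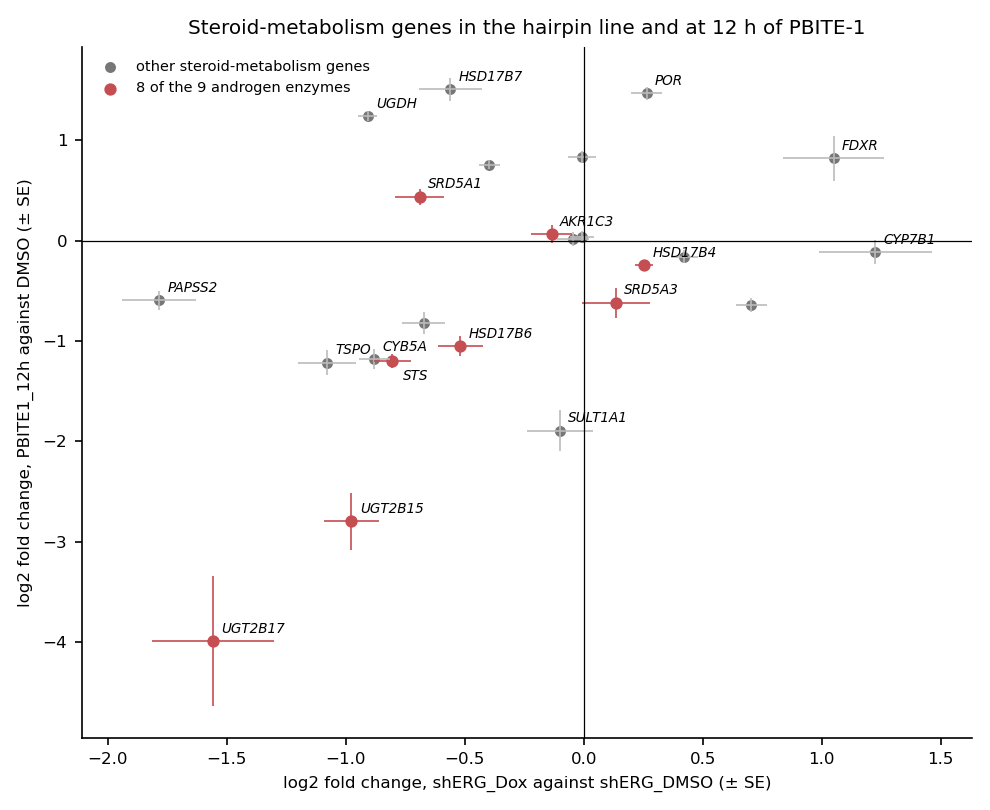
log2 fold change in shERG.Dox against shERG.DMSO (x-axis) and in PBITE-1 at 12 h against DMSO (y-axis) for 8 of the 9 enzymes (red, UGT2B11 left out for its few counts) and for the 16 list genes with a mean count of at least 50 (grey), bars are SE. UGDH, HSD17B7 and HSD17B12, called lower with Dox and higher at 12 h, lie with SRD5A1 in the upper left, and UGT2B15 and UGT2B17 lie lowest.

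**Figure D5:**
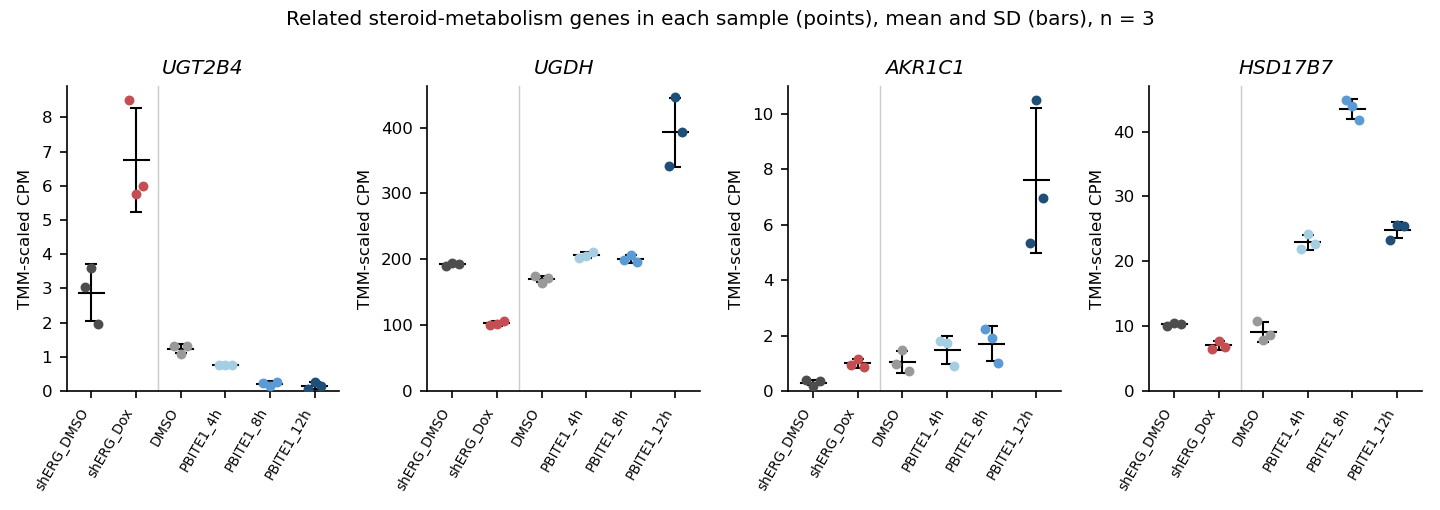
TMM-scaled CPM of UGT2B4, UGDH, AKR1C1 and HSD17B7 in each sample (points) with the group mean and SD (n = 3), linear y-axes from 0. UGT2B4 is higher in shERG.Dox and lower at 8 and 12 h of PBITE-1 than in the DMSO group of its line, and UGDH is lower in shERG.Dox and higher at 12 h.

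The levels of UGT2B15 and UGT2B17 over the 18 samples had a Pearson correlation of 0.97 on the log2 CPM scale, and those of HSD17B6 and STS of 0.89. These are descriptions over 18 samples that share 6 groups, a library and a depth per sample, so much of each value reflects the group means, and reads shared by UGT2B15 and UGT2B17 can add to theirs. Of 11303 candidate genes, the most like UGT2B15 were TUNAR (0.994) and SAMD5 (0.989), and both also led for UGT2B17 (0.974 and 0.975). SRD5A1 was most like SQLE (0.973), a cholesterol synthesis enzyme, and HHEX (0.970). STS was most like PRKACB (0.984) and UFD1 (0.983), and HSD17B6 most like LAMB1 (0.978) and SHMT1 (0.977). HSD17B4 led with NSG2 (0.959) and CYFIP1 (0.958), AKR1C3 with DHX8 (0.878) and DCLRE1C (0.870), and SRD5A3 with TMPRSS4 (0.874) and RHBDD3 (0.869). The values of UGT2B11, with MRPL53 (0.920) and HIGD2A (0.914), are not comparable with the others. It had 0 to 6 counts in each parental sample and passed the filter through the hairpin line. Its correlations therefore mostly reflect the difference between the lines and do not single out genes that vary with it. By Spearman's correlation 1 of the 2 genes was the same for UGT2B11 and for UGT2B17, and neither for the other 7 enzymes.

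Promoter sequence was read for the 7 of 9 enzymes with an entry in the RefSeq promoter table (GRCh38.p14), as the 250 bases before each transcription start. UGT2B15 (chr4:68670653-68670902, minus strand) and UGT2B11 (chr4:69214749-69214998, minus strand) are shown because they are the UGT2B genes among the 9 enzymes that the table holds. They are written 5′ to 3′ along the gene, with matches in capitals to a forkhead motif (TGTTTAC or TATTTAC, either strand) and to a steroid hormone response half-site (AGAACA, either strand).

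UGT2B15: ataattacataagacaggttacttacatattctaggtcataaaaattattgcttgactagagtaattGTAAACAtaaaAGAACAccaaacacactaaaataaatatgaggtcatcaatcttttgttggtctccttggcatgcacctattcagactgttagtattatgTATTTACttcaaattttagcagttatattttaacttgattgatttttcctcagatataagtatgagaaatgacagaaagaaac

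UGT2B11: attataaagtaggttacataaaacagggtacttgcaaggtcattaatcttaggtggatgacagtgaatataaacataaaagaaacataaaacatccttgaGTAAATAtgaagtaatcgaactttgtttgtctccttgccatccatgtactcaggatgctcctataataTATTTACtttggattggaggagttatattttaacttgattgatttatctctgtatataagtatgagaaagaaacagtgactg

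Each of these promoters held 2 forkhead matches, which 5.27% of the 35116 promoters of the table hold at least once, and UGT2B15 held 1 half-site, which 12.4% hold. Neither held the ETS motif GGAAGT on either strand, present in 19.5% of all promoters. Among the 12 starts of the 7 enzymes, 1 ETS site lay before a pair of neighbouring starts of STS, 7 and 236 bases upstream, and the half-site lay 105 and 249 bases before 2 of the starts of STS. The promoters of SRD5A1, SRD5A3, HSD17B4 and AKR1C3 held none of the 3 motifs. A match in these windows is a description of the sequence only.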

How the data were processed

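The authors sequenced rRNA-depleted total RNA (paired-end, 150 bases) and deposited raw counts per Ensembl gene without normalization. The paper's methods name Kallisto, edgeR and limma-voom, and the submitters' processing notes list STAR, featureCounts and hg38. Which of these made the table, the annotation, the use of strand and the treatment of reads that fit several genes are not given in the sources used here. All 9 members were matched by identifier to GENCODE release 29 (GRCh38). The members and gene lists were chosen with earlier results of these data known.

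Counts were scaled by TMM (edgeR 4.0.16), filtered with filterByExpr over the 6 groups (14164 genes) and tested with limma-voom (limma 3.58.1, R 4.3.3), with Benjamini-Hochberg adjustment over all genes. The hairpin line (6 samples) and the parental line (12 samples) were fitted separately, and contrasts between lines in 1 fit of 18 samples. Exon lengths are unions of coding-transcript exons. A gene at 0 may have up to 3 counts' worth of expression, and intervals from counts cover counting error only. Named genes were the 9 members, ERG, KLK3, KLK2, TMPRSS2, FKBP5, up to 3 lower and 3 higher list genes per treatment comparison (adjusted p under 0.05, absolute log2 fold change above 1, groups apart, mean count at least 50) and the 2 genes most correlated with each member. Results for 2 genes are not reported here. Replicate pairs differed by 1.70 to 4.96 chi-square per degree of freedom, so none was a copy. Tested on simulated data with 200 of 14164 genes changed by a log2 of 2, the procedure recovered 199 to 200 per comparison. Recovery there also required an absolute log2 fold change above 1, and the changed genes had a minimum mean count. The simulation therefore does not cover smaller changes or genes with few counts. At an adjusted p under 0.05 alone, 5 to 18 unchanged genes were called per comparison. Alternatives were DESeq2 1.42.0, edgeR's quasi-likelihood test, other scalings, filters and fits, summed gene families, the sum of UGT2B15 and UGT2B17 (added after the data were seen) and leaving out each sample.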

Additional observations from a re-analysis of the deposited data

Results flagged for a closer look

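For 7 of the 9 enzymes the response at 12 h of PBITE-1 and the response to Dox differed in the direct test (limma-voom, 18 samples, adjusted p between 1.1e-11 and 0.0020). The log2 difference, PBITE-1 at 12 h minus Dox, was -1.86 for UGT2B15, -2.48 for UGT2B17, 1.09 for SRD5A1, -0.79 for SRD5A3, -0.54 for HSD17B4, -0.57 for HSD17B6 and -0.44 for STS. Of all genes tested, 35.1% were below 0 and 33.3% above 0 in the same test. The 2 treatments were given to different lines, and treatment and line cannot be told apart.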

How the results depend on the processing

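No called member changed direction under any alternative, and of 624 member results under other tools, scalings, filters or fits, 601 kept their side of the threshold, 12 lost it and 11 gained it. Scaling by library size only moved the median log2 fold change of all genes from 0.02 to 0.28 for Dox, and with it 2 members were higher with Dox (SRD5A3 was added, 0.40). It left 1 member higher at 4 h and 1 at 8 h, as did upper-quartile scaling, and a single fit of all 18 samples left 1 at 8 h. HSD17B4 was the call lost in these. KLK3 with Dox turned from -0.24 to 0.018 on library size only. Requiring at least 10 counts in every sample left 1 member higher in shERG.DMSO than in DMSO, since UGT2B17 was then not tested, and 5 of the 18 list genes still tested were higher with Dox. Leaving out 1 sample gave 1 to 2 members higher at 4 h, 1 to 2 at 8 h, 0 to 1 from 4 to 8 h, and 2 to 5 members lower in shERG.DMSO than in DMSO (5, with SRD5A1 and SRD5A3 added, without the third DMSO sample). For the list it gave 4 to 8 genes higher at 4 h (4 without the third 4 h sample) and 4 to 8 lower at 8 h (4 without the first DMSO sample).

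Samples with the same replicate number did not deviate together (correlations of -0.02 to 0.04), so the numbers were not taken as pairs. With the replicate block HSD17B6 lost its call between the lines (-0.19, adjusted p = 0.059), which RLE scaling, the quasi-likelihood test, DESeq2, no filter and a fit of these groups alone also removed (adjusted p = 0.088, 0.065, 0.15, 0.073 and 0.061), and under the block no other member call changed. Depth limits UGT2B11 in parental cells and UGT2B17 at 12 h, where no sample held more than 6 and 3 counts, respectively. The alternatives for the list and for genes outside the members were added after the data were seen.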
